A study of Mus musculus with 32 samples.

Results

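The upstream JH genes IGHJ1, IGHJ2 and IGHJ3 were followed through the rearranged heavy chain genes of mouse pro-B cells. A clonotype, a distinct CDR3 sequence of a library with its V, D and J genes, was taken when the first J hit of the deposited series table was IGHJ1, IGHJ2 or IGHJ3. This held for 217 of 930 clonotypes of the table: 21 with IGHJ1, 93 with IGHJ2 and 103 with IGHJ3. Libraries that matched a sample held 206 of them among 908 clonotypes, with 17 for IGHJ1, 88 for IGHJ2 and 101 for IGHJ3, and all further values rest on these. The remaining 702 clonotypes used IGHJ4. No clonotype listed more than 1 J gene.

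Heavy chain variable regions are built in pro-B cells by the RAG recombinase, which links a D gene with a JH gene before it adds a V gene to that DJ unit. The JH genes lie in a row downstream of the D genes, in the order IGHJ1, IGHJ2, IGHJ3 and IGHJ4 in the RefSeq annotation, so IGHJ1 is the nearest to D and IGHJ4 the farthest. Each JH gene gives the end of the CDR3, the most variable loop of the antibody heavy chain, and the framework region after it. A join to an upstream gene leaves the later JH genes in place on the chromosome, so a PCR primer at JH4 still reads it, but through a longer product.

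Pro-B cells (B220+ CD43+ IgM- CD25-) were sorted from bone marrow of mice 8 weeks old, either wild type (WT, the control) or knocked out for Setd2 (KO), the methyltransferase of lysine 36 of histone H3. Per the labels, genomic DNA was amplified with a primer for the Vh558 (IGHV1), Vh7183 (IGHV5) or Vhq52 (IGHV2) family and a JH4 primer. A product of 500 bp was cut from the gel and read with MiSeq reads of 150 bp. The deposited labels name neither a Cre driver nor an allele for the knockout, and these amplicons do not measure Setd2, so genotype rests on the labels. There were 32 samples from 11 mice (5 WT, 6 KO): 4 WT and 5 KO mice for Vh558, 5 and 5 for Vh7183, and 5 and 4 for Vhq52. The mouse was the replicate, and repeat Vh558 libraries of a mouse were averaged. Libraries held 387 to 9276 kept reads and 5 to 188 clonotypes, so the share of a JH gene in a single library is imprecise. In the Vh7183 library of KO mouse 1500, for example, 1 upstream clonotype of 9 has a Wilson 95% interval of 1.99% to 43.5%, which covers counting error only. Those labels describe an RNA kit with a poly-A step for the libraries too; were RNA the template, reads per clonotype would also carry transcript levels, and this was not tested. In bulk DNA, a smaller share can come from fewer cells with such a join or from less efficient amplification of it, and these cannot be told apart.

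The JH genes can be told apart by the CDR3 bases they leave. The 4 sequences below are the J part of the CDR3, base by base the most frequent one among clonotypes with an untrimmed J start, with the last 12 bases in capitals. They are shown because the J gene, its trimming and the CDR3 end are all read from them.
IGHJ1: ctactggtacTTCGATGTCTGG
IGHJ2: actacTTTGACTACTGG
IGHJ3: cctggTTTGCTTACTGG
IGHJ4: attactatgctATGGACTACTGG
IGHJ2 and IGHJ3 leave at most 17 bases in the CDR3, IGHJ1 leaves 22 and IGHJ4 leaves 23. The last 9 bases of IGHJ2 and IGHJ4 are the same, while IGHJ3 shares 6 final bases with IGHJ2 and with IGHJ4, and IGHJ1 shares 4 with each of the others. The sequence of IGHJ1 rests on few joins, since 2 of 8 untrimmed clonotypes carried it whole, against 25 of 26 for IGHJ2 and 21 of 28 for IGHJ3 (clonotypes with an insertion or deletion in the J alignment left out). By the 12 final bases alone, 17 of 17 IGHJ1, 82 of 88 IGHJ2 and 95 of 101 IGHJ3 clonotypes were nearest to their own gene. The reference bases come from these same clonotypes, grouped by their J call. This agreement is thus partly built in and is no separate check of the call. A J part under 10 bases was left in 14 IGHJ2 and 7 IGHJ3 clonotypes, and there the CDR3 by itself barely separates these genes from IGHJ4. In all 206 upstream clonotypes the deposited alignment score of the J hit was higher than that of its CDR3 part, so bases after the CDR3 also entered the call.

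The joins with the most reads, from 3 mice per gene, show what the amplicons returned. Capitals mark the J part of the deposited alignment, and the bases before it, from V, D and insertion, are in lower case.
IGHJ1, Vhq52, WT mouse 1432, 13 reads: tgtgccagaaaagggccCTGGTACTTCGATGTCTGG
IGHJ1, Vh7183, WT mouse 1485, 12 reads: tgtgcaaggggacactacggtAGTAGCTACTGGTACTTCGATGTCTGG
IGHJ1, Vhq52, WT mouse 1484, 12 reads: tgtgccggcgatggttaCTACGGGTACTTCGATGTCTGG
IGHJ2, Vhq52, WT mouse 1432, 364 reads: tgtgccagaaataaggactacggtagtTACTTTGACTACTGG
IGHJ2, Vh7183, KO mouse 1487, 69 reads: tgtgcaaggTACTTTGACTACTGG
IGHJ2, Vhq52, WT mouse 1418, 69 reads: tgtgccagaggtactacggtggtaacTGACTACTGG
IGHJ3, Vhq52, KO mouse 1487, 353 reads: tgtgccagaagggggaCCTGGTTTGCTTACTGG
IGHJ3, Vhq52, WT mouse 1432, 146 reads: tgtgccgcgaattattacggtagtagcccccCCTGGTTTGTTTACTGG
IGHJ3, Vh558, WT mouse 1485, 133 reads: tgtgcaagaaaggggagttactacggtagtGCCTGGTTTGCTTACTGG
The IGHJ2 join of mouse 1432 held 5.35% of the reads of its library, and the IGHJ3 join of mouse 1487 held 11.8%. The 3 IGHJ1 joins held at most 0.834%. The IGHJ2 join of KO mouse 1487 had no D segment called and no inserted base between V and J. In the IGHJ1 join of mouse 1485 the J alignment ran 5 bases past the J start, over bases next to an IGHD1-1 segment, so the border between D and J is not fixed there. The capitals of the IGHJ1 join of mouse 1484 differ in a single base from the IGHJ1 sequence above. Whether the capitals before that base come from its IGHD2-3 segment was not tested.

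IGHJ3 and IGHJ2 joins were found in most libraries, and IGHJ1 joins in few. IGHJ3 occurred in 27 of 32 libraries and in all 11 mice, IGHJ2 in 29 libraries and 10 mice, and IGHJ1 in 11 libraries and 8 mice, with at most 3 IGHJ1 clonotypes in a library. The 21 libraries without an IGHJ1 clonotype allow a share of up to 1.60% in the largest and up to 60.0% in the smallest of them (3 clonotypes of the total). The number of upstream clonotypes per library stayed within 1 to 14, while IGHJ4 clonotypes ran from 2 to 187. In 11 of 32 libraries the upstream genes together held more clonotypes than IGHJ4.

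**Figure D1:**
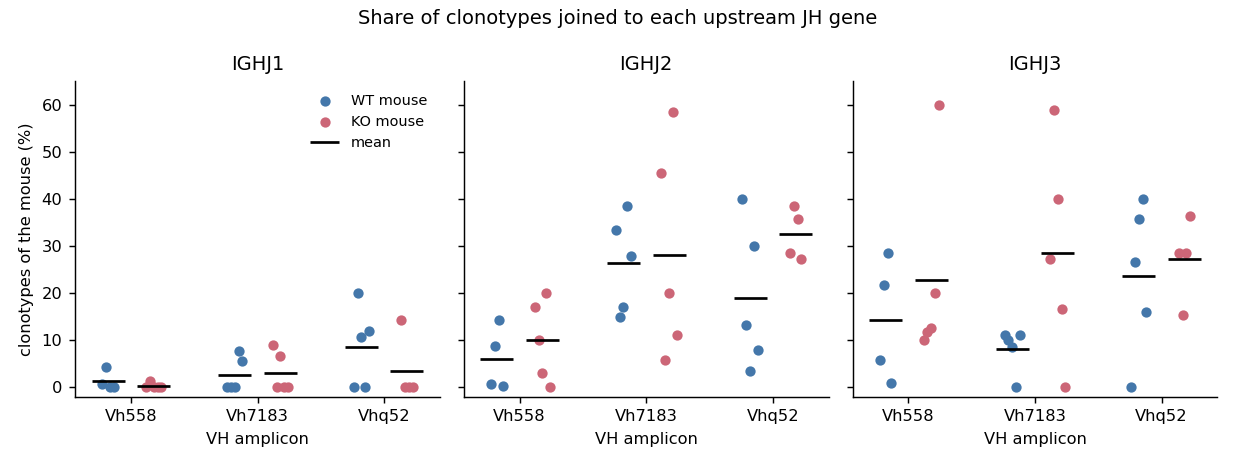
Share of clonotypes joined to IGHJ1, IGHJ2 and IGHJ3 (y axis, percent of the clonotypes of a mouse) in the 3 VH amplicons (x axis). Each point is a mouse, blue for WT and red for KO, and the bar is the group mean. IGHJ1 points lie at 20% or below, and IGHJ2 and IGHJ3 points spread up to 58.3% and 60.0%. WT and KO mice overlap throughout, with 4 of 5 KO mice above all WT mice for IGHJ3 in Vh7183.

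IGHJ1, the JH gene nearest to D, had the lowest mean share in each amplicon. It made up 0.708% ± 1.45 (SD, n = 9) of the clonotypes of a mouse in Vh558, 2.90% ± 3.84 (SD, n = 10) in Vh7183 and 6.33% ± 7.92 (SD, n = 9) in Vhq52. Its highest values were 20%, 12% and 10.7% in WT mice 1432, 1536 and 1484 of Vhq52 and 14.3% in KO mouse 1421 of that amplicon. The other Vhq52 mice, 2 WT and 3 KO, had none.

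IGHJ2 was scarce in Vh558 and frequent in the other amplicons. Its mean share was 8.23% ± 7.69 (SD, n = 9) in Vh558, 27.2% ± 16.6 (SD, n = 10) in Vh7183 and 24.99% ± 13.5 (SD, n = 9) in Vhq52. In Vh7183 the WT mice had 33.3%, 15%, 17.1%, 38.5% and 27.8%, and the KO mice 45.5%, 5.88%, 20%, 58.3% and 11.1%, so the KO values lay on both sides of the WT values. In Vhq52 the KO mice stood close together at 28.6%, 38.5%, 35.7% and 27.3%. The WT mice of Vhq52 were spread over 40%, 13.3%, 3.57%, 30.0% and 8.00%, around the KO values.

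IGHJ3, the neighbour of IGHJ4, had a mean share of 19.0% ± 17.5 (SD, n = 9) in Vh558, 18.4% ± 18.7 (SD, n = 10) in Vh7183 and 25.3% ± 12.7 (SD, n = 9) in Vhq52. The order of IGHJ2 and IGHJ3 was thus not the same in each amplicon, and their means differed by less than the spread between mice. In Vh558 the WT mice had 5.78%, 21.7%, 28.6% and 0.943% and the KO mice 10%, 11.8%, 12.5%, 20% and 60.0%, with overlap. In Vh7183 the WT mice had 11.1%, 10%, 8.57%, 0% and 11.1% and the KO mice 27.3%, 58.8%, 40%, 16.7% and 0%, so all KO mice but 1500 lay above the WT mice. In Vhq52 the WT mice had 0%, 26.7%, 35.7%, 40% and 16.0% and the KO mice 28.6%, 15.4%, 28.6% and 36.4%, with no separation. The Vh558 value of 60.0% in KO mouse 1534 is 3 of 5 clonotypes. All 3 were called as IGHV1-52 with IGHD1-1, 2 of them differ in a single base from the one with the most reads, and each keeps 6 J bases:
IGHJ3, Vh558, KO mouse 1534, 56 reads: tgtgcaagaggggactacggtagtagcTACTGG
IGHJ3, Vh558, KO mouse 1534, 3 reads: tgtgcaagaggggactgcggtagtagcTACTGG
IGHJ3, Vh558, KO mouse 1534, 2 reads: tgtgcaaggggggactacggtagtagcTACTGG
Those 6 bases are also the end of IGHJ2 and IGHJ4. A second run of mouse 1534, which entered no comparison, held 3 clonotypes. Of these, 1 was an IGHJ3 join, with 19 reads, and it was also in the labelled library. Over all libraries, 27 of 206 upstream clonotypes (13.1%) differed in a single base from a clonotype of the same library with more reads, beside 97 of 702 IGHJ4 clonotypes (13.8%). Whether such neighbours are separate joins or copies with an error was not tested.

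The 3 upstream genes together were rarer in Vh558 than in Vhq52. Their share was 28.0% ± 18.6 (SD, n = 9) in Vh558, 48.5% ± 23.4 (SD, n = 10) in Vh7183 and 56.6% ± 12.6 (SD, n = 9) in Vhq52. Vhq52 exceeded Vh558 by 28.6 points (95% interval 12.6 to 44.5), by an exact two-sided permutation test over mice with p = 0.00210 (adjusted p = 0.00629 over 3 comparisons). This test did not pair the amplicons of a mouse, nor did those of the other amplicons below. All 7 mice with both amplicons had the higher share in Vhq52. Paired within them, the difference was 32.3 points (exact sign-flip p = 0.0156, the smallest that 7 mice can give, adjusted p = 0.0469). No amplicon shared a sequencing batch with another, so VH family, primer and batch cannot be told apart in the differences between amplicons. Vh7183 exceeded Vh558 by 20.5 points (95% interval -0.198 to 41.2, exact permutation p = 0.0519, adjusted p = 0.0779) and did not pass, but passed without KO mouse 1500 (26.2 points, adjusted p = 0.0278 by the exact permutation test) and without KO mouse 1534 (24.5 points, adjusted p = 0.0335). Vhq52 and Vh7183 differed by 8.07 points (95% interval -10.5 to 26.7, exact permutation p = 0.368), and by 18.3 points without sequences of more than 1 mouse (adjusted p = 0.0480 by the exact permutation test). Vh558 libraries also held the most IGHJ4 clonotypes, with a median of 24 against 7.5 in Vh7183 and 6 in Vhq52, while the median number of upstream clonotypes was 4, 8.5 and 7. The lowest upstream shares of Vh558 were 1.21% in WT mouse 1536 and 7.05% in WT mouse 1418, whose libraries held 53 to 188 clonotypes. The 4 mice with repeat Vh558 libraries show how far a share moves between libraries of a mouse. Upstream joins were 40% and 14.3% of clonotypes in KO mouse 1421 and 33.3% and 12.9% in KO mouse 1423. In WT mice 1418 and 1536 they were 10.1% and 3.97%, and 1.89% and 0.532%. The second library, from another sequencing batch, was the lower one in each.

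Upstream joins were more frequent in KO than in WT mice by point estimate in each amplicon, and no difference passed the test. These directions did not hold under all settings. In Vh558 the WT mice had 7.05%, 34.8%, 42.9% and 1.21%, and the KO mice 27.1%, 23.1%, 15.6%, 40% and 60.0%. The groups overlapped, and the difference was 11.7 points (95% interval -19.4 to 45.0, exact permutation p = 0.389). It was 4.95 points without WT mouse 1536, 6.89 without WT mouse 1418, 4.997 without KO mouse 1534 and 18.8 without WT mouse 1485, and 0.417 points with only clonotypes also found in the clone list of their sample. Within sequencing batches it was 12.03 points among 3 WT and 3 KO mice (exact permutation p = 0.600), 11.3 points among 2 and 2 mice (exact p = 0.333) and 26.5 points between 1 WT and 2 KO mice, which was not tested. None of these batches has enough mice to reach 0.05. In Vh7183 the WT mice had 44.4%, 25%, 25.7%, 46.2% and 44.4%, and the KO mice 81.8%, 64.7%, 66.7%, 75% and 11.1%. Here 4 of 5 KO mice lay above all WT mice and KO mouse 1500 below them, and the difference was 22.7 points (95% interval -7.39 to 48.9, exact permutation p = 0.119). Without KO mouse 1500 it was 34.9 points (exact permutation p = 0.00794, the smallest that 5 against 4 mice can give, adjusted p = 0.0873). Counted in reads, upstream joins of Vh7183 made up 3.64%, 2.03%, 3.23%, 3.06% and 1.82% in WT mice and 11.6%, 23.9%, 15.5%, 12.6% and 1.03% in KO mice, with the same order of the groups and the same mouse 1500 below (difference 10.2 points, exact permutation p = 0.0476, adjusted p = 0.167).

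In Vhq52 the WT mice had 40%, 60.0%, 50%, 70.0% and 36.0%, and the KO mice 71.4%, 53.8%, 64.3% and 63.6%. The groups overlapped again, with a difference of 12.1 points (95% interval -6.63 to 31.1, exact permutation p = 0.159), which turned to -2.70 with at least 10 reads per clonotype.

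Over all amplicons, with the mouse values centred per amplicon, the KO minus WT difference was 19.2 points (95% interval 1.81 to 35.3, exact permutation p = 0.0325). After adjustment over 11 genotype tests p was 0.274, and the difference did not pass. The centred value was above 0 in 5 of 6 KO mice and below 0 in 4 of 5 WT mice. For single genes it was 15.03 points for IGHJ3 (95% interval -1.501 to 34.7, exact permutation p = 0.104), 6.08 for IGHJ2 (p = 0.385 by the same exact test) and -1.91 for IGHJ1 (p = 0.316 by the same exact test). Without KO mouse 1534 the IGHJ3 value was 8.97 points. The IGHJ2 value was 1.88 points without KO mouse 1487 and 3.36 without WT mouse 1484. The IGHJ1 value was -3.18 without KO mouse 1421, -1.04 without WT mouse 1432 or KO mouse 1487, and between these without any other mouse. Counting only J parts of at least 10 bases lowered the value for all upstream genes to 7.28 points (exact permutation p = 0.392) and turned that of Vh558 to -4.17. In the clone lists of all reading frames it was 3.56 points (exact permutation p = 0.429), with -3.95 in Vh558 and -4.70 in Vhq52, and counted in reads it was 5.23 points (exact permutation p = 0.0866). The KO minus WT differences of the amplicons did not pass a test against each other, with exact permutation p from 0.513 to 0.978.

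Reads tell another story from clonotypes, since upstream joins were carried by few reads each. The 206 upstream clonotypes, 22.7% of all, held 4539 of 124973 reads, 3.63%. IGHJ1 had 88 reads, IGHJ2 1377 and IGHJ3 3074, against 120434 for IGHJ4. The median was 3 reads per clonotype for IGHJ1, 4 for IGHJ2, 10 for IGHJ3 and 17 for IGHJ4, rising with nearness to the JH4 primer. The share of clonotypes at the table's minimum of 2 reads was 35.3% for IGHJ1, 25% for IGHJ2, 17.8% for IGHJ3 and 12.1% for IGHJ4 when pooled. The pooled order did not hold in each amplicon: in Vhq52 these shares were 10%, 10.3%, 11.8% and 15.4%, and in Vh7183 that of IGHJ3, 6.67%, was below the 7.61% of IGHJ4. The gap was widest in Vhq52, where IGHJ3 clonotypes had a median of 31 reads and IGHJ4 clonotypes 336. In Vh7183 these medians were 16.5 and 72, and in Vh558 they were 3 and 12.

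Compared within the same libraries, each upstream gene had fewer reads per clonotype than IGHJ4. IGHJ1 clonotypes were lower in 11 of 11 libraries and 8 of 8 mice, by a mean of -4.61 on the log2 scale (95% interval -6.11 to -3.30), or 24.4-fold. The exact sign-flip permutation test over mice gave p = 0.00781 (adjusted p = 0.0234 over 15 tests). IGHJ2 clonotypes were lower in 29 of 29 libraries and 10 of 10 mice, by -4.28 (95% interval -5.40 to -3.18), or 19.4-fold, with exact p = 0.00195 (adjusted p = 0.00732). IGHJ3 clonotypes were lower in 26 of 27 libraries and 11 of 11 mice, by -3.42 (95% interval -4.40 to -2.46), or 10.7-fold, with exact p = 0.000977 (adjusted p = 0.00732). For each upstream gene this is the smallest p-value that the sign flips of its mice can give. Per mouse, the IGHJ3 difference ran from -5.68 in KO mouse 1500 to -1.44 in KO mouse 1423, with a median of -2.71, and the IGHJ2 difference from -7.27 in KO mouse 1421 to -2.79 in WT mouse 1418, with a median of -3.47. Only libraries with both kinds of clonotype count here, and in a library with few IGHJ4 clonotypes a single large one sets the mean. With at least 3 clonotypes of each kind the IGHJ1 value, -4.41, no longer passed (adjusted p = 0.625 by the exact test), with 3 mice left. With at least 10 reads per clonotype IGHJ1 (-4.82, adjusted p = 0.417) and IGHJ2 (-4.25, adjusted p = 0.0586) did not pass the exact test, and neither did IGHJ1 with only clonotypes in the list of their sample (-5.42, adjusted p = 0.268).

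Neighbours in the JH row were also compared, in tests chosen after these values were seen and adjusted over 21 such tests. IGHJ3 exceeded IGHJ2 by 1.37 on the log2 scale (95% interval 0.54 to 2.25), higher in 9 of 10 mice (exact sign-flip p = 0.00781, adjusted p = 0.0234). IGHJ2 exceeded IGHJ1 by 0.68 (95% interval -0.32 to 1.58) in 6 of 8 mice (exact p = 0.0938, adjusted p = 0.179), which does not pass. Between genotypes, upstream clonotypes had 0.52 log2 units more reads in KO mice (95% interval -0.41 to 1.46, exact permutation p = 0.232). Product length, primer distance and gel cut go with the JH gene in every library, and their part in these differences was not tested.

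**Figure D2:**
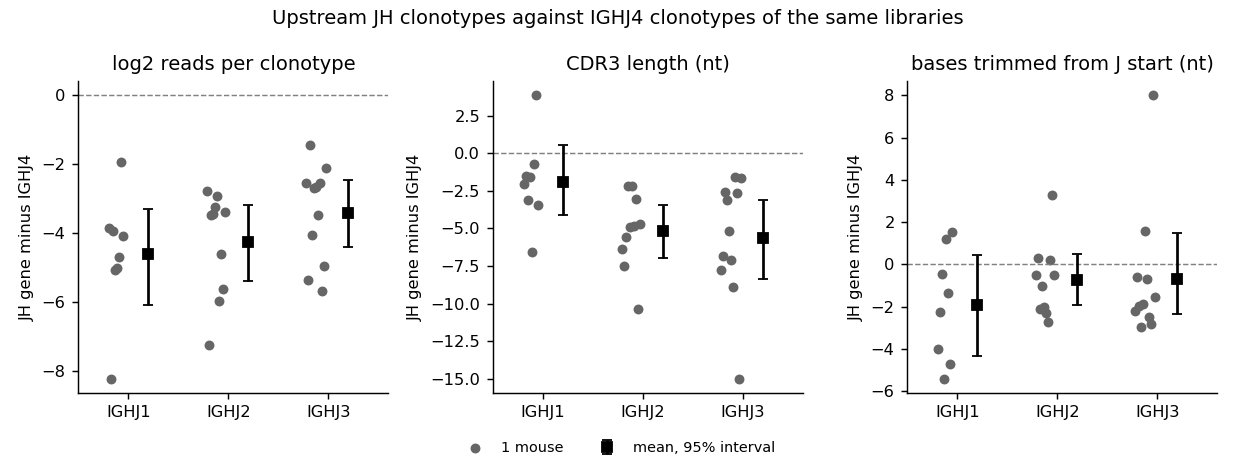
Differences between the clonotypes of each upstream JH gene and the IGHJ4 clonotypes of the same libraries, for log2 reads per clonotype, CDR3 length in nt and bases trimmed from the J start in nt (y axes, JH gene minus IGHJ4). Grey points are mice (8 for IGHJ1, 10 for IGHJ2, 11 for IGHJ3) and black squares are means with 95% intervals; all read differences lie below 0, as do all CDR3 length differences of IGHJ2 and IGHJ3, while trimming differences lie on both sides of 0.

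The J start is cut by RAG and loses bases before ligation. By the deposited alignment it was whole in a larger share of upstream than of IGHJ4 clonotypes when amplicons were pooled. This did not hold in each amplicon. No base was missing in 8 of 17 IGHJ1 (47.1%), 28 of 88 IGHJ2 (31.8%) and 28 of 101 IGHJ3 clonotypes (27.7%), beside 133 of 702 IGHJ4 clonotypes (18.9%). In 7 of those IGHJ1, 17 IGHJ2, 15 IGHJ3 and 81 IGHJ4 clonotypes the alignment ran past the J start. The border before the J part is not fixed there, and only 2 of the 8 IGHJ1 clonotypes carried the whole J sequence. How far D bases aligned as J raise these shares was not tested. In Vhq52 the share with no base missing was 24.1% for IGHJ2 and 26.5% for IGHJ3 beside 26.2% for IGHJ4. The mean loss of IGHJ2 there, 4.21 nt, was above the 3.38 nt of IGHJ4. The mean loss was 2.12 nt ± 2.34 (SD over 17 clonotypes) for IGHJ1, 3.48 ± 3.52 (88 clonotypes) for IGHJ2, 3.03 ± 2.90 (101 clonotypes) for IGHJ3 and 4.32 ± 3.58 (702 clonotypes) for IGHJ4. Beside the untrimmed joins, the commonest loss was 3 bases in IGHJ3, with 22 clonotypes, and 2 or 5 bases in IGHJ2, with 11 each. The longest losses were 7 bases in IGHJ1 and 14 in both IGHJ2 and IGHJ3, bounded by the length of their J parts.

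**Figure D3:**
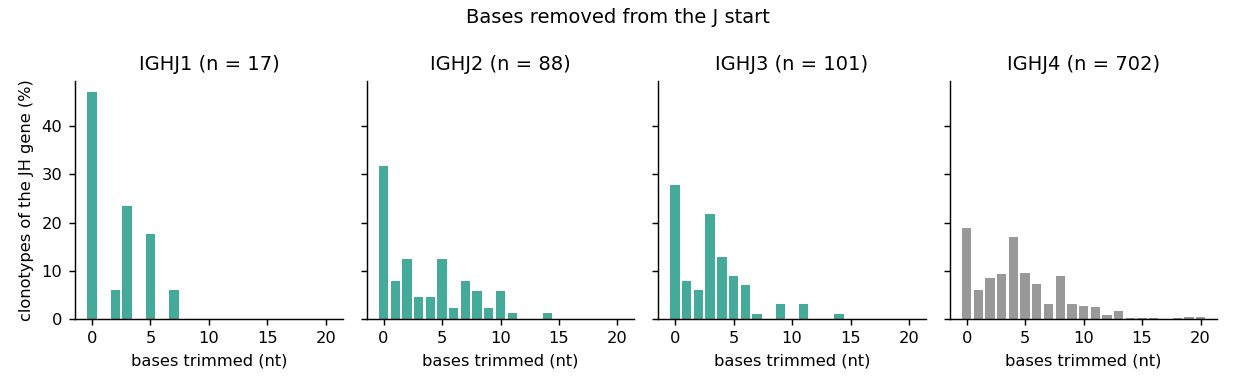
Distribution of the bases removed from the J start (x axis, nt) over the clonotypes of each JH gene (y axis, percent of its clonotypes). The bar at 0 falls from 47.1% in IGHJ1 to 18.9% in IGHJ4, and IGHJ4 has the longest tail. Clonotypes whose J alignment ran past the J start are counted at 0.

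Within libraries the loss was smaller than in IGHJ4 by point estimate for each upstream gene, and none passed the test. The mean difference was -1.93 nt for IGHJ1 (95% interval -4.35 to 0.452, lower in 6 of 8 mice, exact sign-flip p = 0.0938). It was -0.738 nt for IGHJ2 (95% interval -1.90 to 0.516, lower in 7 of 10 mice, exact p = 0.223) and -0.693 nt for IGHJ3 (95% interval -2.32 to 1.501, lower in 9 of 11 mice, exact p = 0.530). KO mouse 1534, whose IGHJ3 joins lost 11 bases, and KO mouse 1500, whose IGHJ2 joins lost 8.11, were far from the rest. Without mouse 1534 the IGHJ3 difference was -1.56 nt (adjusted p = 0.0293 by the exact test), and without mouse 1500 the IGHJ2 difference was -1.18 nt (adjusted p = 0.0488 by the exact test). Upstream trimming was 1.87 nt more in KO than in WT mice (95% interval -1.01 to 5.41, exact permutation p = 0.288), and 0.639 nt more without mouse 1534.

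IGHJ2 and IGHJ3 joins had shorter CDR3s than IGHJ4 joins in the test over all clonotypes. The untrimmed J part of these 2 genes is itself shorter, at 17 bases against 23 in IGHJ4. Over clonotypes the mean CDR3 length was 39.3 nt for IGHJ2, 39.9 nt for IGHJ3, 42.9 nt for IGHJ1 and 45.3 nt for IGHJ4. Within libraries IGHJ2 was shorter by -5.17 nt (95% interval -6.97 to -3.44) in 10 of 10 mice (exact sign-flip p = 0.00195, adjusted p = 0.00732). IGHJ3 was shorter by -5.66 nt (95% interval -8.38 to -3.12) in 11 of 11 mice (exact p = 0.000977, adjusted p = 0.00732). With at least 10 reads per clonotype neither call held, at -3.32 nt for IGHJ2 (adjusted p = 0.417 by the exact test) and -5.37 nt for IGHJ3 (adjusted p = 0.0977), and IGHJ3 also did not pass with at least 3 clonotypes of each kind (-5.42 nt, adjusted p = 0.0879). IGHJ1 differed by -1.90 nt (95% interval -4.10 to 0.548, exact p = 0.125), and passed without WT mouse 1485 (-2.72 nt, adjusted p = 0.0391 by the exact test). CDR3s ran from 36 to 51 nt in IGHJ1, from 21 to 60 nt in IGHJ2 and from 21 to 54 nt in IGHJ3 joins.

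The shortening lay in the J part, whose untrimmed length is 17 bases in IGHJ2 and IGHJ3 and 23 in IGHJ4. A shorter J part is thus largely given by the choice of gene. Tests of it therefore say little about the joins themselves. In added tests the J part of IGHJ2 joins was -5.16 nt against IGHJ4 (95% interval -6.58 to -3.80, adjusted p = 0.0103 by the exact sign-flip test) and that of IGHJ3 joins -5.27 nt (95% interval -7.54 to -3.61, adjusted p = 0.0103 by the same exact test). The CDR3 bases before the J part differed by -0.00919 nt for IGHJ2 (95% interval -1.59 to 1.495) and -0.388 nt for IGHJ3 (95% interval -1.89 to 1.11). IGHJ1, whose J part is nearly as long as that of IGHJ4, instead had -5.06 nt before the J part (95% interval -7.82 to -2.24, adjusted p = 0.0410 by the exact test) and 3.16 nt more J part (95% interval -1.77 to 7.36). Bases aligned past the J start, up to 5 in IGHJ1 and 8 in IGHJ4, counted to the J part. This was so in 7 of 17 IGHJ1 and 81 of 702 IGHJ4 clonotypes, and its part in the IGHJ1 differences was not tested. Inserted bases were counted between V and D and between D and J, or from V to J where no D segment was called. They take in the untemplated additions of terminal transferase, but also D bases that were not recognised. Inserted bases numbered 5.35 on average in IGHJ1, 6.85 in IGHJ2, 6.79 in IGHJ3 and 7.70 in IGHJ4 joins. Within libraries their differences against IGHJ4 were -1.66, 0.210 and -0.545 nt, and none passed (lowest exact sign-flip p = 0.250). Between genotypes the CDR3s of upstream joins were -3.02 nt in KO against WT mice (95% interval -6.01 to -0.0395, exact permutation p = 0.0498), which did not pass after adjustment (p = 0.274). Inserted bases differed by -0.834 nt (95% interval -2.90 to 1.29, exact permutation p = 0.357).

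Each JH gene gave the CDR3 its own final amino acids. IGHJ1 joins ended in FDVW in 16 of 17 clonotypes, IGHJ2 joins in FDYW in 62 of 88 and IGHJ3 joins in FAYW in 71 of 101, while 611 of 702 IGHJ4 joins ended in MDYW. IGHJ2 had 19 different ends and IGHJ3 16, with ADYW (4 clonotypes) and LAYW (7 clonotypes) next in line. Tyrosine, the residue most used for binding in antibody CDR3s, made up 12.8% of CDR3 residues in IGHJ1, 16.9% in IGHJ2, 14.9% in IGHJ3 and 20.01% in IGHJ4 joins. This gave 1.82, 2.22, 1.98 and 3.02 tyrosines per CDR3. IGHJ4 carries further tyrosine codons in its J part, as the sequences above show.

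D partners of IGHJ2 and IGHJ3 had different pooled counts, but the difference did not pass the test over mice. IGHJ3 joined DSP2 genes (IGHD2), the largest D family, in 66 of 93 clonotypes with a D segment (71.0%), and DFL16 (IGHD1-1), the family at the far end of the D cluster, in 12 (12.9%). IGHJ2 joined DSP2 in 28 of 77 (36.4%) and DFL16 in 27 (35.1%). IGHJ1 had 7 DSP2 and 5 DFL16 joins among 15, and IGHJ4 had 321 (52.3%) and 165 (26.9%) among 614, between IGHJ2 and IGHJ3. In Vh7183, DFL16 was used by 10 of 34 IGHJ2 and 0 of 26 IGHJ3 joins, and in Vhq52 by 16 of 27 and 5 of 33. In Vh558 the order was turned, with 1 of 16 IGHJ2 and 7 of 34 IGHJ3 joins. DSP2 was the more frequent with IGHJ3 in each amplicon, with 22 of 34, 24 of 26 and 20 of 33 IGHJ3 joins in Vh558, Vh7183 and Vhq52, beside 6 of 16, 13 of 34 and 9 of 27 IGHJ2 joins. These are clonotype counts, in which libraries with more clonotypes weigh more. Over mice, in added tests, IGHJ3 exceeded IGHJ2 by 36.5 points of DSP2 (95% interval -1.76 to 67.9, higher in 7 of 10 mice, exact sign-flip p = 0.0566, adjusted p = 0.119). For DFL16 the difference was -16.7 points (95% interval -36.4 to 5.28, lower in 8 of 10 mice, exact p = 0.119, adjusted p = 0.192), so neither passed.

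**Figure D4:**
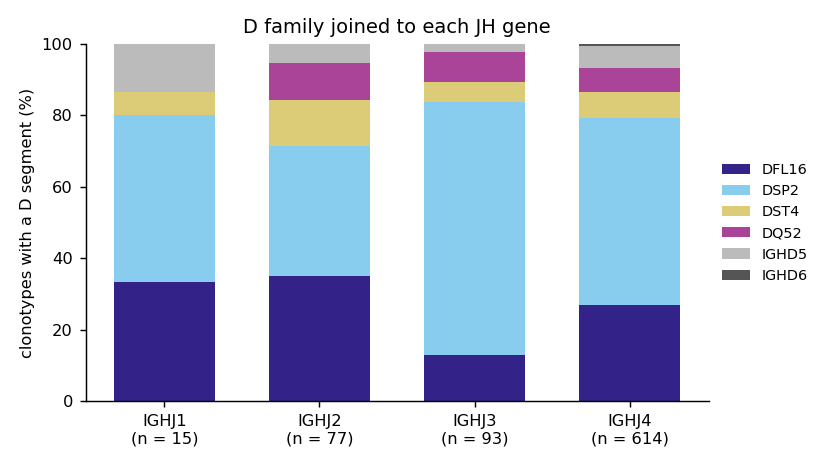
D family of the clonotypes with a D segment (y axis, percent of those clonotypes) for each JH gene (x axis, with the number of clonotypes). DSP2 makes up 71.0% in IGHJ3 and 36.4% in IGHJ2, DFL16 12.9% and 35.1%, and IGHJ4 lies between them.

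DQ52 (IGHD4-1), the D gene beside the JH row, joined IGHJ2 in 8 clonotypes and IGHJ3 in 8 and was not seen with IGHJ1 among 15, which allows a share of up to 3 of 15. It was found in 16 of 185 upstream joins (8.65%) and 41 of 614 IGHJ4 joins (6.68%). Within libraries the upstream minus IGHJ4 difference was -1.04 points for DQ52 (95% interval -8.13 to 6.33, exact sign-flip p = 0.742). It was above 0 in 4 and below 0 in 6 of 11 mice. For DFL16 the difference was -5.44 points (95% interval -16.3 to 5.87, exact sign-flip p = 0.271). More mice lay above 0 (6) than below (4), against the sign of this mean. The DFL16 value was -11.5 points without sequences of more than 1 mouse (exact p = 0.0215, adjusted p = 0.0537) and -12.8 with at least 3 clonotypes of each kind (exact p = 0.0586, adjusted p = 0.176). It was -2.93 without WT mouse 1485 and -3.49 without KO mouse 1487. DST4 (IGHD3) made up 10 of 77 IGHJ2 joins and 5 of 93 IGHJ3 joins. A D segment was called in 88.2% of IGHJ1, 87.5% of IGHJ2, 92.1% of IGHJ3 and 87.5% of IGHJ4 clonotypes, and the within-library difference of the upstream genes together was 7.83 points (95% interval -5.25 to 21.3, exact p = 0.225). It was 3.61 points without KO mouse 1534 and 1.30 points with at least 3 clonotypes of each kind. D and J met with no base between them in 7 of 15 IGHJ1, 21 of 77 IGHJ2 and 22 of 93 IGHJ3 joins, beside 110 of 614 IGHJ4 joins. These pooled counts were not tested. They depend on the J alignment, which ran past the J start in 7 of 17 IGHJ1 and 81 of 702 IGHJ4 clonotypes. In Vh7183 the share was 17.6% for IGHJ2 beside 22.8% for IGHJ4, and in Vhq52 9.09% for IGHJ3 beside 15.1%. The other upstream values by amplicon were above those of IGHJ4.

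IGHV2-2 was the V gene most often joined to each upstream JH gene in Vhq52, and IGHV5-17 in Vh7183. In Vhq52, IGHV2-2 had 7 of 10 IGHJ1, 21 of 29 IGHJ2 and 19 of 34 IGHJ3 joins, beside 18 of 65 IGHJ4 joins (27.7%). In Vh7183, IGHV5-17 had 12 of 30 IGHJ3 joins, found in 2 mice, and 11 of 42 IGHJ2 joins, found in 5 mice, and 2 of 4 IGHJ1 joins, beside 12 of 92 IGHJ4 joins. In Vh558, IGHV1-72 had 9 of 37 IGHJ3 joins in 4 mice and 3 of 17 IGHJ2 joins, as many as IGHV1-53. IGHV1-52 had 7 IGHJ3 joins in 2 mice, of which 3 are the clonotypes of KO mouse 1534 printed above. No test was run on V partners. The D genes whose share moved most like that of a JH gene, over 28 values of mouse and amplicon centred per amplicon, were IGHD2-3 for IGHJ1 (Spearman rho 0.254), IGHD1-1 for IGHJ2 (0.127) and IGHD2-7 for IGHJ3 (0.224), the best of 11 D genes compared. All 3 are weak, and the values share libraries and clonotypes.

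Upstream joins rarely recurred. A CDR3 seen in more than 1 mouse accounted for 6 of 206 upstream clonotypes (3 sequences) and 44 of 702 IGHJ4 clonotypes. None of them was in Vh558, which holds 545 of the IGHJ4 clonotypes. For IGHJ4 they were 18 of 92 clonotypes in Vh7183 and 26 of 65 in Vhq52. The upstream ones were 2 of 30 IGHJ3 joins in Vh7183, and 2 of 29 IGHJ2 and 2 of 34 IGHJ3 joins in Vhq52. The IGHJ2 join of WT mouse 1432 with 364 reads was also in KO mouse 1464 with 5 reads, and the IGHJ3 join of that mouse with 146 reads was in mouse 1464 with 6. Both libraries are of Vhq52. In the 4 mice with repeat Vh558 libraries, 3 of 25 upstream clonotypes of the first library and 3 of 11 of the second were in both, beside 36 of 153 and 36 of 341 IGHJ4 clonotypes. No upstream clonotype shared its whole V and D stretch with a clonotype of another JH gene in its library, among the 198 with at least 15 bases before the J part.

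The clone lists of the single samples, which start at 1 read and hold joins in all reading frames, gave a second view of the same libraries, with the J gene read from the last 12 bases and at most 1 mismatch. They held 44 IGHJ1, 166 IGHJ2 and 229 IGHJ3 clonotypes of 2102, or 20.9% upstream, and 13.6% had no J end within the limit. In frame and without a stop codon were 18 of 44 IGHJ1, 67 of 166 IGHJ2 and 112 of 229 IGHJ3 joins, beside 859 of 1377 IGHJ4 joins. Those are pooled counts. Within libraries the share in frame without a stop codon differed from IGHJ4 by -7.39, 1.48 and -0.266 points, none of which passed (lowest exact sign-flip p = 0.547). Reads per clonotype in these lists were again lower than for IGHJ4, by -1.98 for IGHJ1, -1.79 for IGHJ2 and -1.08 for IGHJ3 on the log2 scale (adjusted p = 0.0205, 0.0103 and 0.0164 by the exact sign-flip test). The remaining joins were out of frame or held a stop codon, and make no heavy chain. Among them the differences were -1.51 for IGHJ1 (adjusted p = 0.0729), -1.45 for IGHJ2 (adjusted p = 0.0103) and -0.50 for IGHJ3 (adjusted p = 0.360 by the same exact test). Only IGHJ2 passed among these 3.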

How the data were processed

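Rearranged IgH genes of WT and Setd2 KO pro-B cells were read from genomic DNA amplicons in 32 samples, although the labels also name an RNA kit and poly-A selection. MiXCR is named in the series title, while the sources used here give no version, settings or genome build. The series table deposited by the authors holds, per clonotype, read counts (productive CDR3s of at least 2 reads), V, D and J hits, and positions and lengths in nucleotides, a unit of its own kind (other). The deposited clone lists hold read counts per CDR3. Columns were read as the file headers name them.

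The mouse was the replicate: repeat libraries were averaged, and mice are separate animals. The same mouse number marks the same animal across amplicons. Of the table, 2 libraries were not used, 1 of KO mouse 1500 without a matching sample and a second run of KO mouse 1534. Shares are percentages of a library's clonotypes. Genotypes and amplicons were compared with exact two-sided permutation tests over mice, and JH genes with IGHJ4 with exact sign-flip tests of the within-library difference. Over all amplicons, values were centred on the amplicon mean and averaged per mouse. Intervals are 95%, found by inverting these tests. Benjamini-Hochberg adjustment ran over 11 genotype, 3 amplicon and 15 within-library tests, with a threshold of 0.05, and over 21 tests added later. Tables were handled with pandas 2.3.3, tests written with scipy 1.17.1 and numpy 2.4.6 under Python 3.11.15 and checked on simulated data, and figures drawn with matplotlib 3.10.9. Named were IGHJ1 to IGHJ4, the 4 D families, per JH gene the 2 commonest V genes of each amplicon (described where frequent) and the D genes most alike in share, and per JH gene the 3 clonotypes with the most reads, at most 1 per mouse. Members, lists and tests were chosen with earlier results of these data known. Alternatives covered read and clonotype minimums, shared sequences, clone lists, reads in place of clonotypes, pooled repeats, batches, a mouse block and each mouse left out. Dropping clonotypes with more than 1 J gene was another, and it removed none. Chosen after seeing the data were a J part of at least 10 nt, removal of 1-base neighbours and the clone lists in all frames.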

Additional observations from a re-analysis of the deposited data

Results flagged for a closer look

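Each group of 4 to 10 mice was searched for a mouse far from the rest, and chance alone gives such a mouse in about 1 of 20 groups, with 32 groups searched. IGHJ1 stood out in 3 groups, each time through 1 clonotype, and where all other mice are at 0 any single clonotype is bound to stand out. KO mouse 1423 had 1.39% in Vh558 where the other KO mice had 0%, WT mouse 1432 had 4.35% in Vh558 with 0.633% next, and KO mouse 1421 had 14.3% in Vhq52 where the other KO mice had 0%. IGHJ3 reached 60.0% in the Vh558 library of KO mouse 1534, with 20% next, from the 3 clonotypes printed above. IGHJ3 was at 0% in Vh7183 of WT mouse 1485, with 8.57% next among WT mice. All upstream genes together made up 11.1% in Vh7183 of KO mouse 1500, with 64.7% next among KO mice. The IGHJ2 joins of mouse 1500 lost 3.26 nt more than its IGHJ4 joins, with 0.308 nt next. A library of mouse 1500 that matched no sample, and entered no comparison, held 10 upstream clonotypes among 19 (4 with IGHJ1, 5 with IGHJ2 and 1 with IGHJ3). They had 98 of its 4865 reads, and 1 of them was also in a labelled library of the mouse.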

How the results depend on the processing

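Under the alternatives other than leaving out a mouse, 200 values kept direction and side of the threshold. Among the others, 13 changed sign, 8 came to pass and 7 no longer passed. With each mouse left out in turn these counts were 311, 3, 5 and 0. The 200 include a setting that drops clonotypes with more than 1 J gene. It removed none, so its values could not change. The 311 likewise include mice absent from a comparison, such as WT mouse 1484 in Vh558. No mouse left out ended a call. With at least 10 reads per clonotype, log2 reads against IGHJ4 were -4.82 for IGHJ1 and -4.25 for IGHJ2 and CDR3 length -3.32 nt for IGHJ2 and -5.37 nt for IGHJ3, none passing; the Vhq52 KO minus WT share turned to -2.70 points, DQ52 to 2.11 points, and inserted bases to -0.651 nt (IGHJ2), 0.730 nt (IGHJ3) and 0.610 nt (KO minus WT). Without sequences of more than 1 mouse, Vh7183 exceeded Vh558 by 22.7 and Vhq52 exceeded Vh7183 by 18.3 points, both passing. With clonotypes also in their sample's list, IGHJ1 reads were -5.42 (not passing) and IGHJ2 inserted bases -0.118 nt. Counted in reads, Vh7183 exceeded Vh558 by 6.51 points and passed. With 3 clonotypes of each kind, IGHJ1 reads were -4.41 and IGHJ3 CDR3 length -5.42 nt, neither passing, and IGHJ3 inserted bases 1.16 nt. With J parts of at least 10 nt, trimming was -1.48 nt (IGHJ2) and -1.75 nt (IGHJ3) and passed, where the limit itself caps losses lower in these shorter genes; Vh7183 minus Vh558 was 27.8 points and passed, and KO minus WT turned to -4.17 points in Vh558, -0.542 nt for trimming and 0.431 nt for inserted bases. Without 1-base neighbours, Vh7183 minus Vh558 was 22.8 points and passed. In the clone lists KO minus WT was -3.95 points in Vh558 and -4.70 in Vhq52, Vh7183 minus Vh558 29.2 (passing) and Vhq52 minus Vh7183 -1.33. The cause of the other changes was not tested.

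Leaving out each mouse, IGHJ1 CDR3 length ran from -2.72 to -1.23 nt, IGHJ2 inserted bases from -0.142 to 0.543 nt, DQ52 from -3.43 to 0.934 points, Vh7183 minus Vh558 from 16.7 to 26.2 points, and trimming from -1.18 to -0.520 nt (IGHJ2) and from -1.56 to -0.465 nt (IGHJ3). With the mouse as a replicate block, amplicons of the same animal were paired. The share differences were 24.1 points for Vh7183 minus Vh558 (8 mice) and 32.3 for Vhq52 minus Vh558 (7 mice). For Vhq52 minus Vh7183 the difference was 9.87 points (9 mice). In this order the adjusted p-values by the exact sign-flip test were 0.0938, 0.0469 and 0.254, so the block changed no call. Few clonotypes per library limit all shares, and IGHJ1 most.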
